A study of Homo sapiens with 6 samples.

Results

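The NEDD4 family comprises 9 human ubiquitin ligases that carry WW domains beside a catalytic HECT domain: HECW1, HECW2, NEDD4, NEDD4L, ITCH, WWP1, WWP2, SMURF1 and SMURF2. All 9 genes were taken by symbol from the deposited table of transcript abundances, in which they are 10 gene IDs of 63677, because SMURF2 has 2 IDs, and hold 126 of 215170 transcripts, or 119 with SMURF2 counted under 1 ID, as in all counts of transcripts below. The family was picked with earlier results of the same comparison known, including the lower level of HECW1, so its values are given here as a description and not as independent evidence. The series compared KMS27 cells with HA-TAZ overexpression (3 libraries, called HA-TAZ 1, 2 and 3) with KMS27 cells whose treatment is given as wild type (3 libraries, called control a, b and c). KMS27 is an established human multiple myeloma line. TAZ, the product of WWTR1, is a transcriptional coactivator of the Hippo pathway, and HA marks it with a short epitope. Wild type sample titles also contain HA, and the table's control columns carry the name scr, which no label explains. By elimination, these columns were assigned to wild type, and whether the control cells carried a construct is not given in the sources used here. The promoter that drove HA-TAZ and the time after its introduction are likewise not given in them. The labels describe libraries made in triplicate and do not say whether these came from separate cultures, so p-values measure the spread between these libraries, which may be technical.

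A ubiquitin ligase of the HECT class first takes ubiquitin onto a cysteine of its own and then passes it to the substrate. The WW domains of the NEDD4 family choose the substrate by binding short proline-rich PPxY motifs, either in the substrate or in an adaptor protein that brings the substrate along. TAZ is itself a WW domain protein and binds the same kind of motif, for instance in the LATS kinases and the angiomotins, which are also described as substrates of NEDD4 family members.

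The cysteine that carries ubiquitin is shared by the whole family, and the sequence around it was compared between the members. For each member, 45 bases around the codon of this cysteine were read in GENCODE release 29, 5′ to 3′, with the cysteine codon in capitals. They came from the coding transcript with the highest mean TPM among those that reach this codon. For HECW1 and HECW2 a shorter coding transcript had a higher mean TPM and was not used. The window of WWP1 was compared but is not shown.
HECW1: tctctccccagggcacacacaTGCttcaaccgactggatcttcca
HECW2: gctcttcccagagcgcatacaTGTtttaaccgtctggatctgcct
NEDD4: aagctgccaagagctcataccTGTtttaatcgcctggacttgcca
NEDD4L: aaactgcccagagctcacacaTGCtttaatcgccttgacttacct
ITCH: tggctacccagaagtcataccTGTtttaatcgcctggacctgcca
WWP2: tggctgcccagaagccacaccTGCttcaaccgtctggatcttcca
SMURF1: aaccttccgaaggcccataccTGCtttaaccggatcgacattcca
SMURF2: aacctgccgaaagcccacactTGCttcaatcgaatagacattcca

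In these windows 22 of 45 positions held the same base in all 9 members. Pairs of members differed at 7 to 19 bases, with 7 between NEDD4 and ITCH, 8 between NEDD4 and NEDD4L, 8 between SMURF1 and SMURF2, and 10 between HECW1 and HECW2. HECW1 and WWP2 differed at 9 and WWP1 and WWP2 at 11, so members named alike were not always the closest in this window. No stretch of 31 bases was shared by the most abundant coding transcripts of any pair of members. Reads assigned to one ligase could still come from outside the family. Of the 31-base stretches of the most abundant WWP1 coding transcript, 24.6% also occur in transcripts of other genes, 808 of them in the pseudogene WWP1P1. For the main SMURF1 coding transcript the share was 10.7%, all of it in TRRAP, and for the HECW1 coding transcript ENST00000453890.1 it was 2.45%, all in the antisense gene LUARIS. The short HECW1 coding transcript ENST00000429529.1, more abundant than it on average in HA-TAZ libraries, had 17.4% of its stretches in 372 other genes. The HA-TAZ libraries held WWP1P1 at 0.0121 ± 0.0109 TPM and the controls at 0.0291 ± 0.0223 TPM (SD, n = 3 each).

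WWTR1 was at 293, 306 and 293 TPM in HA-TAZ 1, 2 and 3 and at 2.69, 2.22 and 1.69 TPM in control a, b and c, which matches the labels. TPM is an abundance corrected for transcript length and stated relative to the rest of its library, so the files give no depth per library. The authors' deposited table implies 52795484 estimated counts for a typical library. Estimated counts given below for members are means on the log scale over both groups, added over the transcripts with statistics there. Transcripts near 0 in some libraries therefore weigh less in them. Because a share shifts when other RNAs change, TPM was divided by one factor per library before testing, and this quotient is called scaled TPM. The factors were 0.866 to 0.967 in HA-TAZ and 1.06 to 1.21 in control libraries. Of 22651 genes tested, 1057 were called higher and 595 lower in HA-TAZ libraries (limma on log2(scaled TPM + 1), Benjamini-Hochberg adjusted p under 0.05). With TPM as deposited the split was 261 higher and 3068 lower, so each direction below is relative to a median gene at a log2 fold change of −0.03 after scaling and −0.27 as deposited. All 9 plasma cell markers examined were present, with 1 called higher (SLAMF7) and 1 lower (CD38). The plasma cell markers summed to 2785 to 3217 TPM in HA-TAZ libraries and 4270 to 4825 TPM in controls. After scaling 6 of the 9 had a log2 fold change below 0, with a median of −0.05, and as deposited the median was −0.35. Of 8 markers of other cell types, 7 were below a mean of 1 TPM, and their summed level was 2.24 to 3.13 TPM in HA-TAZ libraries and 1.95 to 3.19 TPM in controls.

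The family spanned about 2 orders of magnitude in KMS27 cells. Over all transcripts of a gene, NEDD4 was highest in control libraries at 92.4 ± 14.6 TPM (SD, n = 3), followed by WWP1 at 73.5 ± 6.81, ITCH at 35.1 ± 3.91 and WWP2 at 32.6 ± 3.07 TPM. SMURF2 (9.66 ± 1.17 TPM for each of its IDs), SMURF1 (8.55 ± 0.875 TPM), HECW1 (7.46 ± 1.63 TPM) and NEDD4L (5.33 ± 1.28 TPM) overlapped each with the next, and HECW2 was lowest at 0.872 ± 0.502 TPM. NEDD4 and WWP1 overlapped between libraries, as did ITCH and WWP2. In HA-TAZ libraries WWP1 was first at 57.1 ± 5.24 TPM, its range overlapping that of NEDD4 at 51.3 ± 8.97 TPM, and HECW1 at 2.25 ± 0.562 TPM was below NEDD4L at 4.04 ± 1.22 TPM without overlap. Counting only transcripts that GENCODE release 29 types as protein coding gave another order, shown in the right panel of the plot of levels. WWP1 then led in control libraries at 49.5 ± 4.03 TPM, ITCH followed at 27.5 ± 2.28, WWP2 at 11.9 ± 0.358 and SMURF1 at 5.80 ± 0.343 TPM, and none of these 4 overlapped its neighbours. NEDD4 came after them at 3.09 ± 0.172 TPM, overlapping 1 ID of SMURF2 at 3.63 ± 0.485 TPM. The IDs of SMURF2 hold the same 6 values, and its coding level counts 1 of them.

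**Figure D1:**
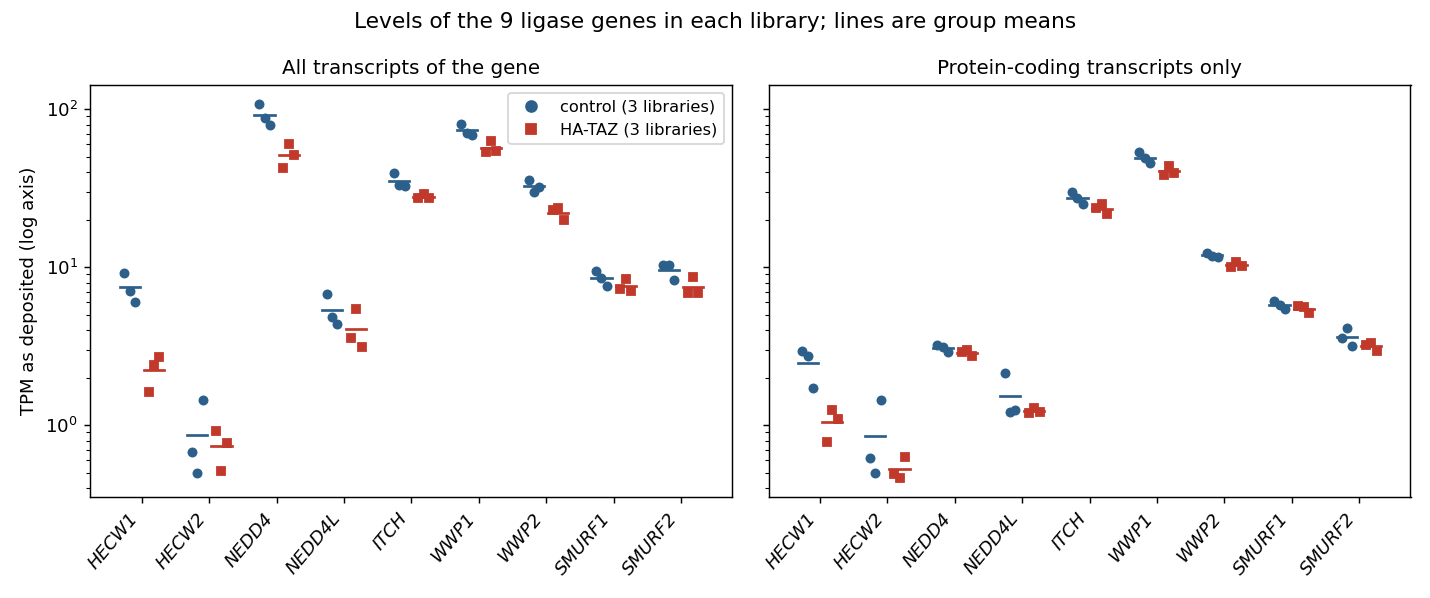
TPM of the 9 ligase genes in each of 3 control (blue circles) and 3 HA-TAZ (red squares) libraries on a log axis, over all transcripts (left) and protein-coding transcripts (right), with group means as lines. HECW1 separates in both panels, from 6.04 to 9.24 TPM in controls and 1.62 to 2.71 TPM in HA-TAZ libraries over all transcripts. On these deposited values ITCH, WWP1 and WWP2 also separate in both panels, and NEDD4 separates over all but not over its coding transcripts. Of all tested genes, 43.6% were lower in HA-TAZ libraries without overlap as deposited.

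HECW1 and NEDD4 were lower in HA-TAZ libraries, and no other tested member was called. Of 8 members with a mean of at least 1 TPM, 2 were called lower and 0 higher. Over all tested genes 2.63% were called lower, 4.67% higher and 7.29% in either direction; since the family was chosen on this contrast, nothing is read from the difference. At an unadjusted p under 0.05 there were 3 members lower and 0 higher, WWP2 being the additional one, where 14.1% of all tested genes were lower and 16.6% higher at that threshold. HECW2 did not pass the filter and was not tested.

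HECW1 (ENSG00000002746), a ligase best known from neurons that is described to act on the Wnt mediator DVL1, was at 1.62, 2.40 and 2.71 TPM in HA-TAZ 1, 2 and 3. Control a, b and c held 9.24, 7.10 and 6.04 TPM. The groups did not overlap, and after scaling the lowest control (5.71) was 1.87 times the highest HA-TAZ library (3.05). The ratio of mean scaled TPM was 0.373, and the log2 fold change on the log2(scaled TPM + 1) scale, which understates low genes, was −1.14 (SE 0.16, adjusted p = 0.0249). Leaving out any of the 6 libraries kept the log2 fold change between −1.26 and −1.01 and moved the adjusted p to between 0.0511 and 0.0844, past the threshold, while the calls among all genes fell to between 118 and 470.

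NEDD4 (ENSG00000069869), the founding member, which ubiquitylates growth factor receptors and ion channels among others, was at 42.3, 60.2 and 51.6 TPM in HA-TAZ 1, 2 and 3. Control a, b and c held 109, 88.7 and 80.0 TPM. The lowest control lay above the highest HA-TAZ library. The ratio of mean scaled TPM was 0.685 and the log2 fold change −0.54 (SE 0.11, adjusted p = 0.0449). The call was lost when any single library was left out (adjusted p from 0.0683 to 0.118), with no filter on level (0.0846) and with no trend in the variance model (0.0636), and the direction was lost over coding transcripts, as described next.

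Splitting each gene's TPM by transcript type separated the 2 called members. This split was chosen after the gene values had been seen. Over protein-coding transcripts HECW1 was the only member called lower (1 of 8 tested, 0 higher), where 4.11% of all 10527 genes in that fit were called lower and 28.6% higher. Over the other transcripts, which are retained introns, processed transcripts and transcripts subject to nonsense-mediated decay, HECW1 and NEDD4 were called lower (2 of 8, 0 higher), against 1.49% lower, 1.0% higher and 2.49% in either direction among 8064 genes. All 8 members had a log2 fold change below 0 over these other transcripts, with a median of −0.30 where all genes had −0.09. Over coding transcripts 7 of 8 were above 0, with a median of 0.08 where all genes had 0.13. The share of all genes below 0 in these 2 fits was not computed. Fitted singly, 62.1% of all tested transcripts of other types in protein-coding genes and 36.5% of coding ones were below 0.

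**Figure D2:**
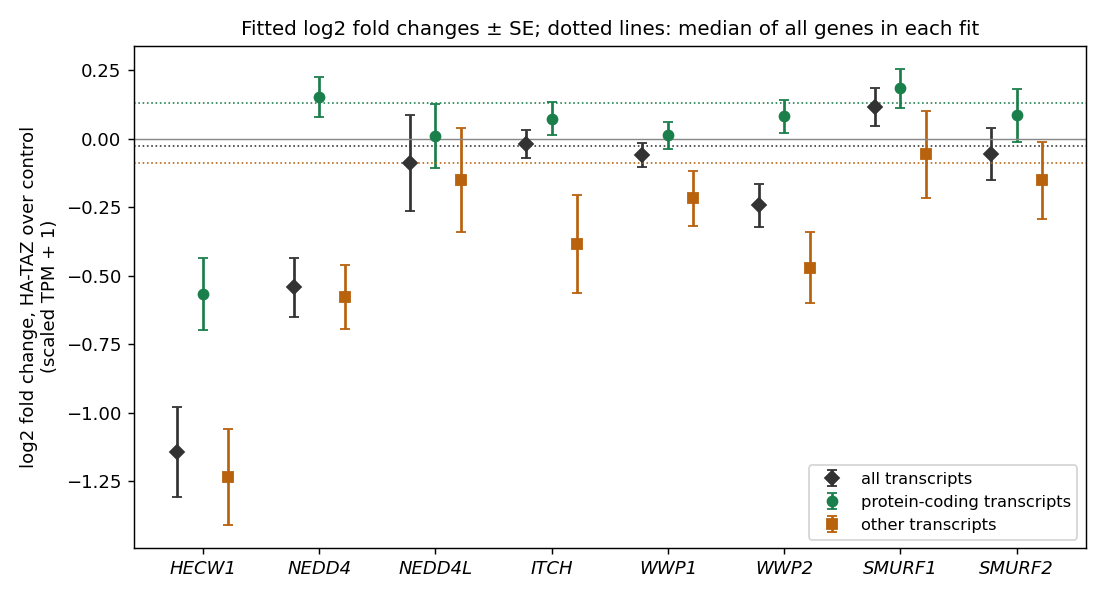
Log2 fold change of HA-TAZ over control with its standard error (limma, log2(scaled TPM + 1)) for the 8 tested ligases, over all (diamonds), protein-coding (circles) and other transcripts (squares), with the median of all genes in each fit as a dotted line. HECW1 lies at −0.57 over coding transcripts, and NEDD4 at 0.15 over coding and −0.58 over other transcripts.

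In NEDD4 the coding transcripts did not differ in the way the gene did. They summed to 2.92, 3.00 and 2.73 TPM in HA-TAZ 1, 2 and 3 and to 3.22, 3.15 and 2.89 TPM in control a, b and c. These ranges overlapped as deposited. After scaling they were separate, with controls from 2.66 to 2.89 and HA-TAZ libraries from 3.07 to 3.38. The log2 fold change was 0.15 (SE 0.07, adjusted p = 0.141), close to the median of 0.13 for all genes in that fit. As deposited, the mean ratio was 0.934. Coding transcripts made up only 5.73% of NEDD4's TPM in HA-TAZ and 3.38% in control libraries. They carried 25.4% of its estimated counts in the authors' deposited table, 1087 per typical library against 3193 for the other transcripts. Only 2 of its 5 coding and 4 of its 7 other transcripts had such counts.

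The TPM of NEDD4 was mostly that of ENST00000508075.1, a processed transcript of 965 bases in 3 exons with no annotated coding sequence. This transcript was at 38.8, 53.1 and 48.5 TPM in HA-TAZ 1, 2 and 3 and at 97.7, 80.9 and 75.5 TPM in control a, b and c. It held 91.1% of the gene's TPM in HA-TAZ and 91.7% in control libraries, and its groups did not overlap. In the authors' deposited table its effect was −0.38 as a natural log (SE 0.08, q = 0.000135). The main coding transcript, ENST00000435532.3 (5869 bases in 29 exons), was at 2.73 ± 0.129 TPM in HA-TAZ libraries and 2.85 ± 0.182 TPM in controls (SD, n = 3 each), with an effect of 0.19 in the authors' deposited table (SE 0.08, q = 0.157).

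**Figure D3:**
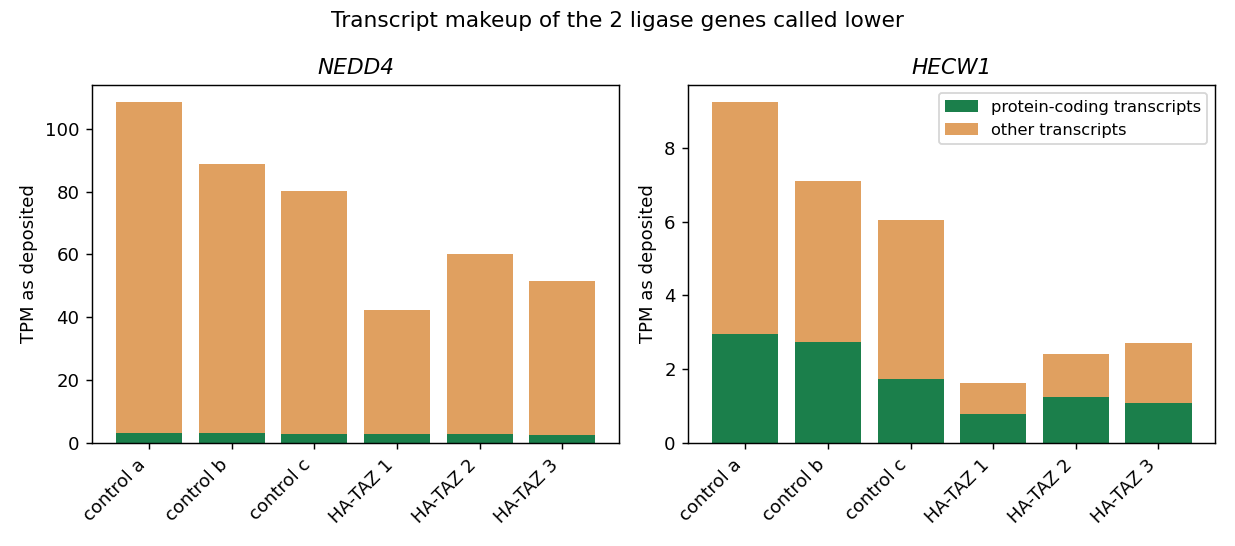
TPM of NEDD4 (left) and HECW1 (right) in each library, stacked as protein-coding (green) and other transcripts (orange). The coding part of NEDD4 stays between 2.73 and 3.22 TPM in all 6 libraries while its other part is 39.3 to 57.2 TPM in HA-TAZ libraries and 77.2 to 105 TPM in controls, and both parts of HECW1 are lower in HA-TAZ libraries.

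These transcripts part early. The abundant non-coding ENST00000508075.1 shares its first 93 bases with the coding ENST00000435532.3, up to a point within the start of the coding sequence. Its other 872 bases (90.4%) are not in that transcript. The last 30 shared bases are in capitals and the 30 that follow in each transcript in lower case, 5′ to 3′ from GENCODE release 29.
NEDD4 ENST00000508075.1: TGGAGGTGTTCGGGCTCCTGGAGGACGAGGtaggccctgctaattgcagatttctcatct
NEDD4 ENST00000435532.3: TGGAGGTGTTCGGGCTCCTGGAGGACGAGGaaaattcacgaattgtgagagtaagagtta

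Most of ENST00000508075.1 is also not particular to NEDD4. Of its 935 stretches of 31 bases, 740 (79.1%) occur on either strand in transcripts of 133 other genes, most of all BLOC1S6, with 538. None of the stretches of ENST00000435532.3 occur in another gene. Another short transcript, ENST00000557845.1, at 1.04 ± 1.80 TPM in HA-TAZ libraries and 3.99 ± 2.97 TPM in controls, shares 70.6% of its stretches in the same way. Paired reads that fall within shared sequence can be assigned to any of these genes, so the level of ENST00000508075.1 is uncertain. The annotation release that the authors used is not given in the sources used here, and the count of shared stretches was made in GENCODE release 29.

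Of the 133 genes that share this sequence, 99 were tested. A log2 fold change below 0 was found for 82 of them, where 53.3% of all tested genes were below 0, and the median was −0.33 where that of all tested genes was −0.03. Called lower were 12 and called higher 4 (REL, TCTN1, CFLAR and CTSC), where 2.63% and 4.67% of all genes were called; these 4 are named because they go the other way and were chosen after their values were seen. Among the 30 tested genes that share at least 100 stretches, 27 were below 0, with a median of −0.38. BLOC1S6, a subunit of a complex that forms lysosome-related organelles, was at 57.5 TPM on average in HA-TAZ libraries and 80.6 TPM in controls (log2 fold change −0.18, adjusted p = 0.0807). What part of the NEDD4 value comes from the shared sequence was not tested.

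Over the 6 libraries, the genes whose log2(scaled TPM + 1) followed NEDD4 most closely were UGDH-AS1 (Pearson r = 0.999), SLC39A12-AS1 (0.998), AL590867.1, DPY19L2P2 and RP11-727A23.10 (each 0.996). Of these, UGDH-AS1 shares 298 and AL590867.1 308 of the 935 stretches with ENST00000508075.1, and the other 3 share 0. UGDH-AS1 was at 13.7, 19.97 and 16.8 TPM in HA-TAZ 1, 2 and 3 and at 36.2, 29.99 and 26.1 TPM in control a, b and c. With 6 libraries in 2 groups that differ, such correlations are common, and 1437 of 22650 genes had an r above 0.9 with NEDD4.

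HECW1 was lower over coding and other transcripts alike. Its coding transcripts summed to 0.786, 1.25 and 1.09 TPM in HA-TAZ 1, 2 and 3 and to 2.96, 2.73 and 1.73 TPM in control a, b and c. The groups did not overlap, and the log2 fold change was −0.57 (SE 0.13, adjusted p = 0.0171). Although they held only 47.0% of the gene's TPM in HA-TAZ and 33.0% in control libraries, the 3 coding transcripts carried 84.5% of its estimated counts in the authors' deposited table, 372 per typical library. Most of these counts came from a pair of long transcripts, ENST00000453890.1 with 191 and ENST00000395891.2 with 171. Of the 8 other transcripts of HECW1, 6 had such counts.

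The HECW1 coding transcript ENST00000453890.1, of 5169 bases, was at 0.328, 0.260 and 0.371 TPM in HA-TAZ 1, 2 and 3 and at 1.01, 1.07 and 1.02 TPM in control a, b and c. ENST00000395891.2, of 9501 bases, was at 0.155, 0.180 and 0.128 TPM in HA-TAZ libraries and 0.530, 0.556 and 0.400 TPM in controls. Both separated the groups, with control to HA-TAZ ratios of mean scaled TPM of 2.61 each. The authors' deposited table gave effects of −0.95 (SE 0.15, q = 3.03e-08) and −0.93 (SE 0.15, q = 9.97e-08) for them, as natural logs. ENST00000490954.2, a processed transcript of 531 bases with the highest mean TPM of the gene over the 6 libraries, was at 0.442 ± 0.309 TPM in HA-TAZ libraries and 1.92 ± 0.371 TPM in controls, with 19.3 estimated counts. The processed transcript ENST00000471527.1 was at 0.163 ± 0.151 and 1.36 ± 0.729 TPM, and the short coding ENST00000429529.1 at 0.570 ± 0.255 and 0.940 ± 0.572 TPM, the latter with overlap. All 9 HECW1 transcripts with statistics in the authors' deposited table had a negative effect, and 3 had a q-value under 0.05.

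RNA annotated within an intron of HECW1 was lower too. HECW1-IT1, which lies on the same strand inside the gene, was at 0.197, 0.229 and 0.318 TPM in HA-TAZ 1, 2 and 3 and at 1.77, 1.38 and 1.43 TPM in control a, b and c. It was below the filter and was not tested, and the groups did not overlap. Of all tested genes, 43.6% were lower and 4.41% higher without overlap as deposited, and 18.3% lower and 20.2% higher after scaling. The 3 protein-coding neighbours on either side (C7orf25, PSMA2, MRPL32, STK17A, COA1 and BLVRA) had log2 fold changes from 0.09 to 0.42, and none of them was called. PSMA2, a proteasome subunit, had the highest, at 0.42 (adjusted p = 0.0531). The genes closest to HECW1 in pattern over the 6 libraries were RN7SL377P, under 2 gene IDs with the same values, RP11-474N24.6, RP11-347P5.1 and ACSBG1, with a Pearson r of 0.998 to 0.999, and 1558 of 22650 genes had an r above 0.9. ACSBG1, a fatty acid activating enzyme, was at 1.34, 1.68 and 1.66 TPM in HA-TAZ 1, 2 and 3 and at 3.60, 2.91 and 2.72 TPM in control a, b and c.

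NEDD4L, the relative of NEDD4 that removes epithelial sodium channels from the cell surface, was at 3.55, 5.43 and 3.15 TPM in HA-TAZ 1, 2 and 3 and at 6.79, 4.83 and 4.38 TPM in control a, b and c. The ranges overlapped, and the log2 fold change was −0.09 (SE 0.18, adjusted p = 0.758). Its coding transcripts summed to 1.23 ± 0.0445 and 1.54 ± 0.534 TPM (log2 fold change 0.01, adjusted p = 0.955). Its leading transcripts were ENST00000590694.1, ENST00000590638.1 and the coding ENST00000400345.3, each near or below 1 TPM. The coding transcript ENST00000586263.1 was at 0.327, 0.588 and 0.242 TPM in HA-TAZ libraries and close to 0 in each control. Its effect in the authors' deposited table was 5.14 (SE 0.82, q = 1.34e-07). The 6.53 estimated counts there are a mean on the log scale over both groups. The controls near 0 pull this mean down, so it is not the count in HA-TAZ libraries.

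ITCH, which ubiquitylates JUN and JUNB in T cells, differed little. Its level was 27.6, 29.1 and 27.3 TPM in HA-TAZ 1, 2 and 3 and at 39.6, 33.3 and 32.5 TPM in control a, b and c. These groups did not overlap as deposited and overlapped after scaling (log2 fold change −0.02, SE 0.05, adjusted p = 0.807). Its longest coding transcript, ENST00000374864.4, was at 10.96 ± 0.239 TPM in HA-TAZ libraries and 11.4 ± 0.255 TPM in controls. It had an effect of 0.19 in the authors' deposited table (SE 0.06, q = 0.0185), whereas the coding ENST00000535650.1 and ENST00000262650.6 had −0.02 and −0.12 with q-values of 0.961 and 0.712.

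WWP1 and WWP2, the closest relatives of ITCH, had different transcript makeups. WWP1 was at 53.5, 63.1 and 54.8 TPM in HA-TAZ 1, 2 and 3 and at 81.2, 71.0 and 68.3 TPM in control a, b and c, which after scaling overlapped (log2 fold change −0.06, SE 0.04, adjusted p = 0.384). Coding transcripts held 70.9% of WWP1's TPM in HA-TAZ and 67.4% in control libraries, led by ENST00000265428.4, ENST00000517970.1 and ENST00000520798.1. WWP2 was at 23.0, 23.7 and 19.9 TPM in HA-TAZ 1, 2 and 3 and at 35.8, 29.7 and 32.1 TPM in control a, b and c. The WWP2 groups did not overlap on either scale, and its log2 fold change of −0.24 (SE 0.08, adjusted p = 0.105) missed the threshold after scaling and passed it as deposited (−0.53, adjusted p = 0.0345). The coding transcripts of WWP2 had a log2 fold change of 0.08 (SE 0.06, adjusted p = 0.314) and the others −0.47 (SE 0.13, adjusted p = 0.0783). Coding ENST00000359154.2 was level as deposited, at 6.30 ± 0.277 TPM in HA-TAZ libraries and 6.33 ± 0.197 TPM in controls, while the processed transcript ENST00000568845.1 was at 3.23 ± 0.940 and 5.78 ± 1.02 TPM (SD, n = 3 each).

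SMURF1 and SMURF2 are known for acting on SMAD proteins and receptors of the TGF-beta and BMP pathways. SMURF1 was at 7.31, 8.40 and 7.07 TPM in HA-TAZ 1, 2 and 3 and at 9.40, 8.59 and 7.66 TPM in control a, b and c. It was the only tested member with a log2 fold change above 0 after scaling (0.12, SE 0.07, adjusted p = 0.302), and as deposited it was below 0 (−0.15). SMURF2 under both IDs together was at 13.8, 17.5 and 13.8 TPM in HA-TAZ 1, 2 and 3 and at 20.7, 20.7 and 16.6 TPM in control a, b and c. The groups overlapped, and the log2 fold change was −0.06 (SE 0.09, adjusted p = 0.704). The pseudogene SMURF2P1 was at 4.67 ± 0.185 TPM in HA-TAZ libraries and 5.33 ± 0.589 TPM in controls (log2 fold change 0.09, adjusted p = 0.635).

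HECW2, the close relative of HECW1, was at 0.921, 0.510 and 0.772 TPM in HA-TAZ 1, 2 and 3 and at 0.678, 0.496 and 1.44 TPM in control a, b and c. The ranges overlapped. Its full-length coding transcript ENST00000260983.3, of 12180 bases, was at 0.185 ± 0.0216 TPM in HA-TAZ libraries and 0.292 ± 0.0404 TPM in controls, with an effect of −0.22 in the authors' deposited table (SE 0.13, q = 0.401). The difference between HECW1 and HECW2 in response was not tested.

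The authors' deposited table gave statistics for 73 of the 119 family transcripts. At a q-value under 0.05 there were 2 with a positive effect (ENST00000586263.1 of NEDD4L and ENST00000374864.4 of ITCH) and 4 with a negative effect (3 of HECW1 and ENST00000508075.1 of NEDD4), where 4.08% of all 109487 transcripts were positive and 1.6% negative at that threshold. Non-coding transcripts of the family had a negative effect in 35 of 45 cases and coding ones in 16 of 27. Of the 35, HECW1 gave 6 of its 6 and WWP2 11 of its 12. Over the whole table the median effect was −0.06 for non-coding and 0.10 for coding transcripts, and the share of negative effects was not computed. Among all transcripts of the limma fit described next, 62.1% of other types in protein-coding genes and 36.5% of coding transcripts were below 0. In the limma fit on transcripts, 0 of 32 family transcripts with a mean of at least 1 TPM were called, where 0.534% of 57448 were called (0.432% higher and 0.103% lower), and at an unadjusted p under 0.05 there were 7 lower and 2 higher, where 11.1% and 13.1% of all tested transcripts were.

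**Figure D4:**
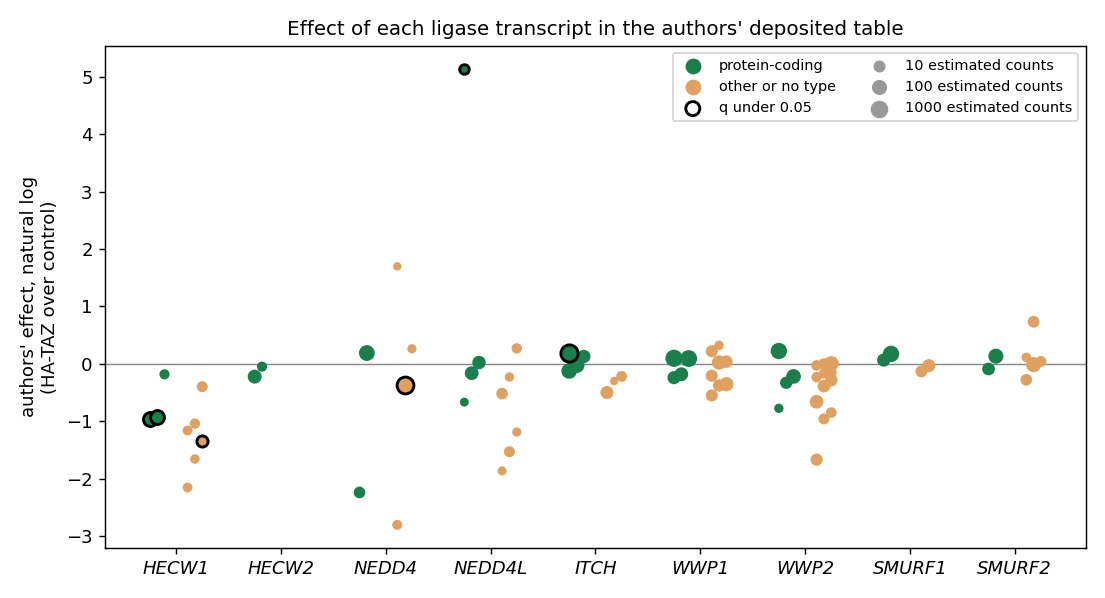
Effect of each family transcript in the authors' deposited table, on a natural log scale (above 0: higher in HA-TAZ), by gene, coloured by coding (green) or other type (orange), sized by estimated counts and ringed where q is under 0.05. All 9 points of HECW1 lie below 0, and the ringed point of NEDD4 is its non-coding transcript at −0.38.

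Partners of the ligases were examined as lists. Of all 22651 tested genes, 4.67% were called higher and 2.63% lower, with a median log2 fold change of −0.03. As deposited, 261 of all tested genes were called higher and 3068 lower, with a median of −0.27. Among adaptors and arrestin-like partners, many of which carry PPxY motifs and recruit or activate the ligases, 9 of 12 were tested, 2 were called higher and 0 lower, and the median log2 fold change was 0.17. LAPTM5, a lysosomal protein that depends on NEDD4 for its sorting, was at 2.84, 2.17 and 1.91 TPM in HA-TAZ 1, 2 and 3 and at 0.248, 0.266 and 0.260 TPM in control a, b and c (log2 fold change 1.52, SE 0.15, adjusted p = 0.0112). It passed the filter on level only through the HA-TAZ libraries, where it is high, so its call adds nothing to the values themselves. NDFIP2, an endosomal activator of the family, was at 16.1 ± 0.302 and 14.98 ± 1.02 TPM, overlapping as deposited and separate after scaling (log2 fold change 0.39, SE 0.06, adjusted p = 0.0340). ARRDC3 and WBP2 each had a log2 fold change of 0.17 and an adjusted p of 0.0966. As deposited, 3 of the 9 adaptors were above 0, with a median of −0.13 and with 1 called higher and 1 lower, and leaving out 1 library left 0 to 1 calls.

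Enzymes that charge HECT ligases with ubiquitin showed no call in either direction among 9 tested, with 4 higher and 1 lower at an unadjusted p under 0.05 (14.1% of all genes were lower and 16.6% higher) and a median of 0.16. As deposited, 1 of the 9 was above 0, with a median of −0.14 and 1 called lower. The smallest adjusted p values were those of UBA1, the main ubiquitin-activating enzyme (log2 fold change 0.16, adjusted p = 0.0706), and the conjugating enzymes UBE2D2 (0.16, 0.0806), UBE2D4 (−0.25, 0.111) and UBE2E1 (0.20, 0.132).

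Of 12 tested regulators of the ligases, 4 were called higher and 0 lower (4.67% and 2.63% of all genes), with a median of 0.13. SGK1, the kinase that phosphorylates NEDD4L, was at 26.6 ± 3.23 TPM in HA-TAZ libraries and 23.3 ± 1.31 TPM in controls (log2 fold change 0.47, SE 0.07, adjusted p = 0.0256). SGK3, on the same list, went the other way and was not called (log2 fold change −0.36, SE 0.13, adjusted p = 0.125). Its groups did not overlap on either scale. The 14-3-3 proteins hold phosphorylated NEDD4L inactive, and 3 of their genes were called, namely YWHAG (0.49, adjusted p = 0.0106), YWHAB (0.18, adjusted p = 0.0439) and YWHAQ (0.23, adjusted p = 0.0462). YWHAE (0.12), YWHAH (0.09) and YWHAZ (0.13) were not called. SFN was lower in HA-TAZ libraries without overlap, but was below the filter and not tested. The 4 calls in the list depended on the scaling. As deposited the list had 0 called higher and 1 lower, and the means of YWHAB and YWHAQ were lower in HA-TAZ libraries. Leaving out 1 library left 0 to 2 calls.

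Among genes of described substrates, 22 of 31 were tested, with a median of 0.06. Called higher were 3 and lower 1, where 4.67% and 2.63% of all genes were. JUNB was at 37.9, 35.9 and 37.4 TPM in HA-TAZ 1, 2 and 3 and at 15.5, 17.3 and 17.6 TPM in control a, b and c (log2 fold change 1.39, SE 0.11, adjusted p = 0.00689). JUN was at 16.0, 15.9 and 15.7 TPM and at 8.77, 9.11 and 8.90 TPM in the same order (log2 fold change 1.04, SE 0.08, adjusted p = 0.0061). Both are transcription factors of the AP-1 group, and the libraries of each group lay close together. CFLAR, an inhibitor of caspase-8 activation that ITCH is described to target, rose by 0.52 on the log2 scale (adjusted p = 0.00891), and 27 of the stretches of ENST00000508075.1 occur in its transcripts. IGF1R, the insulin-like growth factor receptor, was at 24.05 ± 2.21 TPM in HA-TAZ libraries and 40.5 ± 3.38 TPM in controls (log2 fold change −0.44, SE 0.06, adjusted p = 0.0185). As deposited the list had 2 called higher and 3 lower. Leaving out 1 library left 2 to 3 calls, all higher, so the call of IGF1R was lost without any one library. RNA levels of substrates say nothing of their ubiquitylation, which was not measured.

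Other genes with the same domains were called in both directions. Where 4.67% of all tested genes were called higher and 2.63% lower, 34 genes for other WW proteins were tested. Called higher were 4 (WWTR1 itself, BAG3, PQBP1 and WWC3) and lower 2 (DMD and PLEKHA7), with a median of 0.02. As deposited there were 1 higher and 7 lower, with a median of −0.25. BAG3, a co-chaperone, had a log2 fold change of 0.42 (adjusted p = 0.0357), PQBP1 0.39 (0.0249), WWC3 0.26 (0.0485), DMD −0.45 (0.0394) and PLEKHA7 −0.30 (0.0424). The mean of WWC3 was lower in HA-TAZ libraries as deposited, and leaving out 1 library left 1 to 3 calls in the list, all higher, so the calls of DMD and PLEKHA7 were lost without any one library, as they were with no filter and without the variance trend. Of 18 tested HECT ligases outside the family, 1 was called lower and 0 higher (2.63% and 4.67% of all genes), with a median of −0.003. This was HERC1, at 20.6, 24.9 and 19.8 TPM in HA-TAZ 1, 2 and 3 and 37.3, 32.2 and 32.7 TPM in control a, b and c (log2 fold change −0.34, SE 0.07, adjusted p = 0.0425), and its call was lost with any library left out. HERC5, UBE3A and TRIP12 had log2 fold changes of 0.38, 0.11 and 0.22 and were not called. No test compared these lists with the NEDD4 family.

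**Figure D5:**
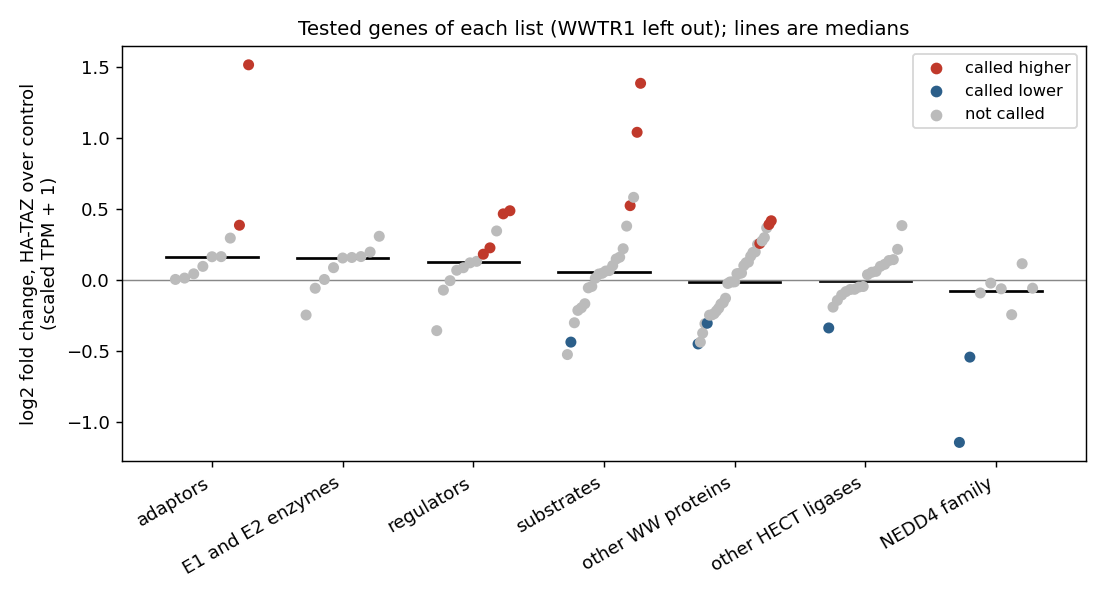
Log2 fold change of HA-TAZ over control (limma, log2(scaled TPM + 1)) for each tested gene of the partner lists and the NEDD4 family, with genes called higher in red, lower in blue and others in grey, and list medians as lines; WWTR1 is left out. The family holds 2 genes called lower, HECW1 at −1.14 and NEDD4 at −0.54, and the substrate list holds JUNB at 1.39 and JUN at 1.04.

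TAZ binds DNA through TEAD proteins, whose sites commonly hold the letters GGAATG. This motif was searched on both strands in RefSeq promoter windows of GRCh38.p14, from 250 bases before to 50 after a transcript start. It was found in 0 of 1 window of HECW1, 0 of 3 of NEDD4, 0 of 2 of HECW2, 0 of 1 each of ITCH, SMURF1 and SMURF2, 1 of 3 of WWP2 and 4 of 5 of NEDD4L; WWP1 was not searched. Of all 35116 windows, 14.03% held it. A match or its absence in such a window describes these letters only.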

How the data were processed

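Total RNA of KMS27 cells, depleted of ribosomal RNA, was sequenced in 6 libraries, 3 per group. Per the submitters' processing notes, kallisto 0.46.0, sleuth 0.30.0 and GRCh37 were used; the annotation release and strand setting are not given in the sources used here. The authors deposited TPM per transcript (215170 transcripts, each library summing to 1000000) and a sleuth table, whose effect and mean are natural log values per the file headers and values, with p-values and q-values by the authors.

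TPM was summed per gene ID, scaled by median-of-ratios factors over 21512 genes, and tested with limma 3.58.1 (R 4.3.3, trend) on log2(scaled TPM + 1) for 22651 genes with a mean of at least 1 TPM; Benjamini-Hochberg threshold 0.05. In simulated data for this comparison of 22651 genes, the test recovered 68% (raised) and 74% (lowered) of 50 genes each changed by 1.0 on the log2 scale, and 86% and 84% of those changed by 1.5. The changed genes were drawn above a level higher than the filter, and all others were left unchanged with independent noise. These rates therefore do not cover the genes closest to the filter. Transcript types and sequences came from GENCODE release 29 (types for 84.7% of transcripts), so no coordinates are given.

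The members, lists and the comparison were chosen with earlier results of these data known. Named were all members with up to 3 leading transcripts each, the 4 genes of each partner list with the smallest adjusted p plus any called, and the 5 genes closest in pattern to HECW1 and NEDD4. The alternatives were another pseudocount, scaling, filters, variance model, sums per symbol, each library left out and, chosen after seeing the data, coding or other transcripts only. Figures were drawn with matplotlib 3.10.9.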

Additional observations from a re-analysis of the deposited data

How the results depend on the processing

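Of 110 alternative values for the members, 82 kept their direction and side of the threshold, 14 lost their call, 1 gained one and 13 changed direction. As deposited, without rescaling, WWP2 passed the threshold (−0.53, adjusted p = 0.0345) and SMURF1 turned to −0.15. Over protein-coding transcripts only, log2 fold changes turned to 0.15 for NEDD4, 0.0096 for NEDD4L, 0.072 for ITCH, 0.012 for WWP1, 0.082 for WWP2 and 0.085 for SMURF2, and over other transcripts only to −0.058 for SMURF1; both splits were chosen after seeing the data, and by their construction hold fewer transcripts per gene. With 1 library left out, log2 fold changes ranged from −0.038 to 0.0079 for ITCH, −0.24 to 0.033 for NEDD4L and −0.12 to 0.0074 for SMURF2, changing sign, from −1.26 to −1.01 for HECW1 and from −0.61 to −0.44 for NEDD4. The members called, 2 as reported, numbered 0 in every such fit and 1 with no filter, with a mean of at least 5 TPM (which leaves HECW1 untested), without the variance trend and over coding transcripts.

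Of the lists, adaptors had 2 calls (1 higher, 1 lower) as deposited, 1 call with no filter, with a mean of at least 5 TPM and without the trend, and 0 to 1 with a library left out. The E1 and E2 enzymes had 1 (lower) as deposited and 0 with any library left out. Regulators had 1 as deposited, 2 with no filter, 2 without the trend and 0 to 2 with a library left out, substrates 5 (2 higher, 3 lower) as deposited and 2 to 3 (none lower) with a library left out, other WW proteins 8 (1 higher, 7 lower) as deposited, and none lower with no filter (2 calls), without the trend (2) or with a library left out (1 to 3), and other HECT ligases 0 with no filter, without the trend or with any library left out. Among all genes 1652 calls became 3329 as deposited, 691 with no filter, 758 without the trend, 3443 over coding and 201 over other transcripts, and 118 to 470 with a library left out. The transcript fit called 0 family transcripts, 1 (lower) with a mean of at least 5 TPM, and 0 with any library left out. Apart from the filters and left-out libraries, which change what is tested, the cause was not tested.

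No paired analysis was possible because the control columns carry a name that is in no label, so no label ties their numbers to those in the wild type titles. With 3 libraries per group, an exact permutation test of a single value cannot go below 0.1. TPM keeps no depth per library, so members with few estimated counts, such as HECW2, NEDD4L and the short HECW1 transcripts, are known only as well as their spread shows.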
